A study of Mus musculus with 4 samples.

Results

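The genes described here are Krt7, Krt8, Krt18 and Krt19, the keratins of simple luminal epithelium, chosen by gene symbol from the 22609 genes in each deposited count table. All 4 were found, and all 4 passed the filter on low counts (20 or more in any 1 library), which 13638 genes passed. RNA was sequenced from mammospheres, colonies grown in suspension for 7 days on plates that prevent attachment, in a medium with EGF, bFGF, B27, heparin, insulin and hydrocortisone. The starting cells were sorted basal mammary cells of Balb/C mice killed at 4 months. The title of the study names bisphenol A (BPA) given in puberty and its effect on mammary stem cells.

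The control group received sesame oil by gavage for 3 weeks from day 21. The BPA group received BPA, an estrogen-like compound used to make plastics, over the same weeks, at a daily 25 µg/kg. The DMBA group received sesame oil and then, at 2 months, 1 gavage of 30 mg/kg DMBA (7,12-dimethylbenz[a]anthracene), a carcinogen. The BPA+DMBA group received both agents, and all mice were kept on a low-phytoestrogen diet. Each group is 1 library from pooled spheres of 5 animals, so no group has replicates. Counts assigned to genes ranged from 15672532 in BPA+DMBA to 30627055 in control. The basal keratins Krt5 and Krt14 and the basal transcription factor Trp63 were detected in every library (Trp63 at 41.1 to 99.9 CPM, a depth-scaled count explained with the levels below). So were the luminal genes Kit, at 130 to 273 CPM, and Elf5, at 97.3 to 147 CPM.

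Keratins form intermediate filaments as obligate pairs of a type I and a type II chain. Krt8 (type II) and Krt18 (type I) are the usual partners in simple epithelia, Krt7 is a second type II chain of ducts and glands, and Krt19 is a short type I chain that lacks most of the tail. In the mammary gland these 4 mark luminal cells, while Krt5 (type II) and Krt14 (type I) are the pair of the basal layer. Unpaired keratin chains are degraded, so the balance of the types is of interest beside the level of each gene.

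In the mouse, Krt8 and Krt18 are neighbouring protein-coding genes on chromosome 15, transcribed away from each other, so Krt18 lies at the edge of the type II cluster although it is a type I gene. Krt7 is on the same chromosome, next to Krt80 and Krt87, and Krt19 is on chromosome 11 in the type I cluster, between Krt15 and Krt9. The promoter windows of 3 of the 4 genes were matched in RefSeq (build GRCm38.p6, 250 bases before to 50 after the annotated start) and are shown, since these were the windows matched. Capitals mark matches, on either strand, to the motifs that the next paragraph spells out.
Krt7, chr15:101412153-101412452, plus strand: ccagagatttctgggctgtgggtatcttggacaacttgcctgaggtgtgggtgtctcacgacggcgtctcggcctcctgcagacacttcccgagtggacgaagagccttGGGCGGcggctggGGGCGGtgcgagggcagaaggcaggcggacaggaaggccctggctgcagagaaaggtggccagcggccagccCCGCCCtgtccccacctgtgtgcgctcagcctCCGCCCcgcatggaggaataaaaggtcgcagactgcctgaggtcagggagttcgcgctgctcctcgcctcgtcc
Krt8, chr15:102004293-102004592, minus strand: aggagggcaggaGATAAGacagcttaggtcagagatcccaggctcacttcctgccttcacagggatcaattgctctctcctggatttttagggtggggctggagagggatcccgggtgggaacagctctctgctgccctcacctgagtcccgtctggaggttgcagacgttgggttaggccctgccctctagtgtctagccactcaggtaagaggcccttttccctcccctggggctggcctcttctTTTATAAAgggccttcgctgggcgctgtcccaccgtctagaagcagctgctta
Krt18, chr15:102027966-102028265, plus strand: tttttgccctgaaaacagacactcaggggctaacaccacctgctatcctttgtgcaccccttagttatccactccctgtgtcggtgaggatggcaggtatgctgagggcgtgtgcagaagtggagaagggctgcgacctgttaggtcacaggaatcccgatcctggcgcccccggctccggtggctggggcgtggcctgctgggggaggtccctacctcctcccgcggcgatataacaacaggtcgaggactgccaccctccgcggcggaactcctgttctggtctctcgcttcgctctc

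GGGCGG, the letters of a GC box, occurred 4 times in the Krt7 window and 0 times in those of Krt8 and Krt18. It occurred in 35.7% of all 32851 promoter windows of this length. TATAAA, the letters of a TATA box, was in the Krt8 window alone of the 3, as 2 overlapping matches on opposite strands at the annotated start, and in 13.6% of all windows. GATAAG, the letters of a GATA site, was in the Krt8 window once and in 7.44% of all windows. TGANTCA (AP-1 letters, in 7.81% of all windows) and CCGGAA (ETS letters, in 14.9%) were in none of the 3. GC content was 66.3% in Krt7, 58.0% in Krt8 and 61.3% in Krt18, against a median of 52.7% over all windows. These matches are descriptions of letters in a short window.

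All 4 genes were abundant in every library. Levels are given as CPM, the usual depth-scaled read count, here after TMM scaling of the library sizes, and with 1 library per group each value stands alone. Krt18 had 1025 CPM in control, 1164 with BPA, 867 with DMBA and 896 with both agents. Its highest library was BPA, and both DMBA-exposed libraries lay below both unexposed ones. It ranked 61 to 89 among all genes by count. Krt19 had 222 CPM in control, 253 with BPA, 180 with DMBA and 228 with both agents. The DMBA library was the lowest, and BPA+DMBA lay between control and BPA, so exposed and unexposed libraries overlapped.

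Of the type II chains, Krt7 had 725 CPM in control, 842 with BPA, 681 with DMBA and 753 with both agents. BPA was again the highest and DMBA the lowest library. Krt8 had 595 CPM in control, 712 with BPA, 643 with DMBA and 645 with both agents. For Krt8 the lowest library was control, and the DMBA-exposed libraries lay between the unexposed ones. The span from lowest to highest library was 1.20-fold for Krt8, 1.24-fold for Krt7, 1.34-fold for Krt18 and 1.41-fold for Krt19. Among the 3942 genes with at least 1000 counts in every library, 52.1% spanned less than Krt8 on the log2 scale, 62.5% less than Krt7, 80.2% less than Krt18 and 86.4% less than Krt19. By comparison Krt5 spanned 4.72-fold and Krt14 2.94-fold.

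**Figure D1:**
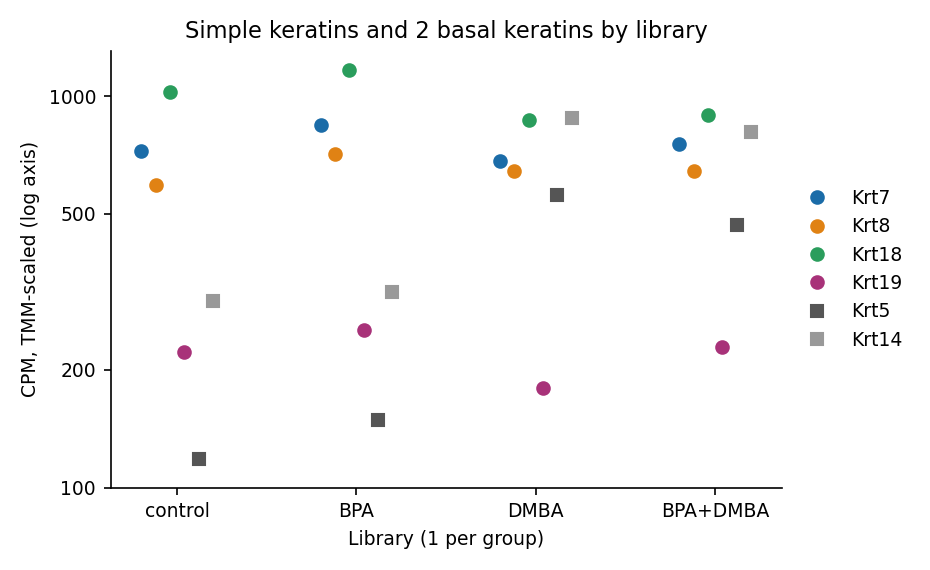
CPM (log axis) of the 4 simple keratins (circles) and of the basal keratins Krt5 and Krt14 (squares) in each of the 4 libraries, 1 point per gene and library. The circles stay within a 1.41-fold span per gene, while Krt5 goes from 118 in control to 558 in DMBA and Krt14 from 299 to 878.

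Between genes, levels were compared per kilobase of coding sequence. The mean over the 4 libraries was 779 CPM per coding kilobase for Krt18, 547 for Krt7, 441 for Krt8 and 183 for Krt19. That order held in each of the 4 libraries, and the ranges of neighbours in it did not overlap. Krt18 ran from 683 to 917, Krt7 from 497 to 614, Krt8 from 404 to 484 and Krt19 from 149 to 209. Krt14 (mean 397) and Krt5 (mean 186), the basal pair, ran from 206 to 605 and from 68.0 to 321 on the same scale. The place of Krt7 rests on the length used. Its longest annotated transcript is 4094 bases against 1371 coding bases, and per kilobase of that transcript its 4 values (166 to 206) lay below those of Krt8 (304 to 364). The level of Krt8 may be understated, because 29.7% of the 50-base windows of its transcript also occurred in other annotated transcripts, 514 of 567 such windows in the pseudogene Krt8-ps. The deposited tables hold reads aligned to more than 1 place as a separate entry. The same share was 0.222% for Krt7, 0.72% for Krt18 and 0% for Krt19. The lncRNA genes Gm671 and Gm36026 overlap Krt7 and Krt8 in GENCODE M21, and whether counting used strand could not be read from the labels.

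The effect of DMBA was tested over all 4 libraries in a model that adds a BPA term and a DMBA term (edgeR's quasi-likelihood test, Benjamini-Hochberg adjustment over 13638 genes, threshold 0.05). None of the 4 simple keratins passed: 0 of 4, where 14.4% of all genes passed (909 higher and 1053 lower, or 889 and 431 with total counts alone as scaling). At an unadjusted p under 0.05 there were 2, Krt18 and Krt19, against 31.1% of all genes, and both DESeq2 and edgeR's likelihood ratio test called 0. Krt18 had the most negative value, a log2 change of -0.31 (SE 0.103, 95% interval -0.56 to -0.06, edgeR adjusted p = 0.0965). Krt19 had -0.23 (SE 0.0792, interval -0.42 to -0.04, edgeR adjusted p = 0.108). Krt7 had -0.13 (SE 0.0949, interval -0.35 to 0.10, edgeR adjusted p = 0.412) and Krt8 -0.01 (SE 0.104, interval -0.26 to 0.23, edgeR adjusted p = 0.942), and with total counts alone as scaling the Krt8 value was 0.069. The intervals leave room for a fall of Krt18 by 0.56 and of Krt8 by 0.26 on the log2 scale. The model has 1 residual degree of freedom, the interaction of BPA and DMBA, which stands in for replicates.

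These calls were not far from the threshold for 2 genes. With no filter on low counts Krt18 passed, at -0.32 (edgeR adjusted p = 0.0477). Without the BPA+DMBA library, and with DMBA as the only term, Krt19 passed at -0.39 (edgeR adjusted p = 0.0219), while without the DMBA library it had -0.057 (edgeR adjusted p = 0.751). For Krt18 the adjusted p ran from 0.0753 to 0.326 when a library was left out. It was 0.282 by DESeq2, 0.0618 with DMBA as the only term over all 4 libraries and 0.0675 with the trend on transcript length removed. That trend moved with DMBA. Across genes, the Spearman correlation of transcript length with the log2 ratio was -0.30 in DMBA against control, -0.35 in BPA+DMBA against BPA, 0.096 in BPA against control and 0.019 in BPA+DMBA against DMBA. With the trend removed the DMBA changes were -0.44 for Krt18, -0.34 for Krt19 (edgeR adjusted p = 0.0628), -0.095 for Krt8 and -0.081 for Krt7, and none passed.

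Both genes of the basal pair rose with DMBA. Krt5 rose by 1.95 on the log2 scale (SE 0.145, edgeR adjusted p = 0.00273) and Krt14 by 1.46 (SE 0.0983, edgeR adjusted p = 0.00240). Because a ratio of 2 genes within a library needs no scaling, the simple keratins were also read against the basal ones. Krt8 counts were 5.03 times those of Krt5 in control (exact 95% interval 4.85 to 5.21) and 4.77 times in BPA (4.59 to 4.97), but 1.15 times in DMBA (1.13 to 1.18) and 1.38 times in BPA+DMBA (1.34 to 1.42). Krt18 counts were 3.43 times those of Krt14 in control and 3.69 times with BPA, but 0.988 times with DMBA and 1.10 times with both agents. Both ratios were therefore far lower in the 2 DMBA-exposed libraries, and the intervals, which cover counting error only, did not overlap between exposed and unexposed libraries. The CPM of single genes also did not overlap between these libraries for 63.3% of all genes.

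The simple keratins' share of all keratin counts, over 52 keratin rows, was also lower in both DMBA-exposed libraries. It was 78.0% in control (exact 95% interval 77.8 to 78.3), 77.5% in BPA (77.2 to 77.8), 44.9% in DMBA (44.6 to 45.2) and 51.7% in BPA+DMBA (51.3 to 52.0). Over the same libraries their summed level was 2567, 2971, 2370 and 2523 CPM, while the summed level of Krt5, Krt14, Krt17 and Krt6a was 658, 790, 2709 and 2211 CPM. Between libraries the second sum thus differed by far more than the first. In bulk RNA, fewer cells of a type and less RNA per cell cannot be told apart.

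**Figure D2:**
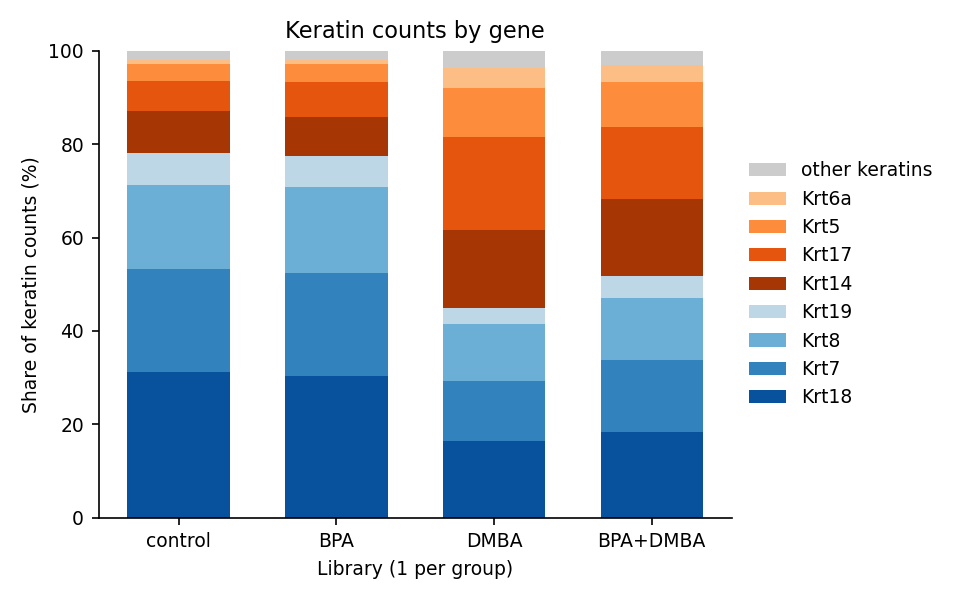
Share of all keratin counts (%) taken by each named keratin in each library, stacked to 100%; blue shades are the simple keratins, orange shades Krt5, Krt6a, Krt14 and Krt17, grey all other keratin rows. The blue part covers 78.0% in control and 77.5% in BPA, and 44.9% in DMBA and 51.7% in BPA+DMBA.

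Within single pairs of libraries no simple keratin differed at least 2-fold. The pair of DMBA with control and the pair of BPA+DMBA with BPA share no library. In DMBA against control Krt18 was lower by a log2 ratio of -0.24 (exact 95% counting interval -0.27 to -0.22) and Krt19 by -0.31 (-0.36 to -0.25). In BPA+DMBA against BPA Krt18 was at -0.38 (-0.41 to -0.35) and Krt19 at -0.15 (-0.21 to -0.08). Krt18 and Krt19 thus lay below equality in both pairs. Krt7 was at -0.09 and -0.16 in the same 2 pairs, though the first value was 0.019 with total counts alone as scaling. Krt8 was at 0.11 (0.08 to 0.14) in DMBA against control and at -0.14 (-0.18 to -0.10) in BPA+DMBA against BPA, on opposite sides of equality. The count was 0 of 4 in both pairs, against 6.55% of all genes in the former and 3.74% in the latter. Of the 4, only Krt18 had both DMBA-exposed libraries below both unexposed ones, which held for 31.6% of all genes; exposed and unexposed libraries did not overlap, in either direction, for 63.3%.

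**Figure D3:**
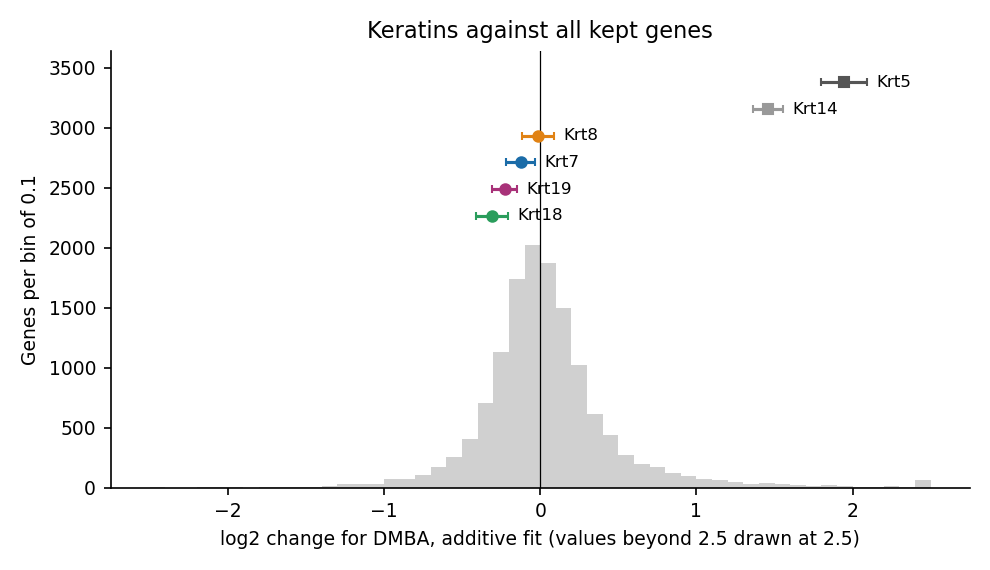
Histogram of the log2 change for DMBA over 13638 genes (grey, additive fit, bins of 0.1), with the 4 simple keratins (circles) and Krt5 and Krt14 (squares) placed above it at their own change, bars 1 SE; their height has no meaning. The simple keratins lie between -0.31 and -0.01, inside the bulk of all genes, and Krt14 and Krt5 at 1.46 and 1.95.

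Among the 4 simple keratins the balance of the 2 chain types differed between libraries as well. It leaves out Krt5, Krt14, Krt17 and Krt6a, which together held 20.0% of keratin counts in control and 51.3% in DMBA. Krt7 and Krt8 counts together were 1.06 times those of Krt18 and Krt19 in control (exact 95% interval 1.04 to 1.07) and 1.10 times in BPA (1.08 to 1.11). They were 1.26 times in DMBA (1.25 to 1.28) and 1.24 times in BPA+DMBA (1.22 to 1.27). These are ratios of counts without scaling for length, so they compare libraries and do not tell which type is in excess within one. Per coding kilobase, control had 529 CPM for Krt7 and 404 for Krt8, against 808 for Krt18 and 184 for Krt19. Krt8 over its partner Krt18 was 0.580 in control, 0.612 with BPA, 0.741 with DMBA and 0.720 with both agents, so both DMBA-exposed libraries had the higher ratio, with a span of 1.28-fold. Krt7 over Krt19 was 3.26, 3.33, 3.79 and 3.30 in the same order, and only the DMBA library stood apart. The counting intervals of exposed and unexposed libraries did not overlap for the first 2 ratios. They cover counting error only, and how often other gene ratios separate in this way was not computed. For single genes, the CPM of DMBA-exposed and unexposed libraries did not overlap for 63.3% of all genes. The trend on transcript length given above moved with the same libraries, and its part in these ratios was not tested. With that trend removed, the log2 ratios in DMBA against control were 0.049 for Krt8 and -0.36 for Krt18. In BPA+DMBA against BPA they were -0.24 and -0.52. Krt8 thus lay above Krt18 in both pairs, as it did without that correction. With 1 library per group the spread between animals behind the ratios of the 2 types is unknown. In the DMBA-exposed libraries Krt5 over Krt14 was also higher, 0.636 in DMBA and 0.577 in BPA+DMBA against 0.395 in control and 0.473 in BPA.

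For BPA the additive fit called 0 of the 4 simple keratins and 0% of all genes, and so none in any list described below. At an unadjusted p under 0.05 edgeR had 304 genes, 2.23% of all, and Krt19 alone of the 4. DESeq2 called 1 gene and edgeR's likelihood ratio test 6, none of them a simple keratin. Krt19 had a log2 value of 0.27 (SE 0.0792, 95% interval 0.08 to 0.46, edgeR adjusted p = 0.999), Krt7 0.18 (interval -0.05 to 0.41), Krt8 0.13 (-0.12 to 0.38) and Krt18 0.12 (-0.13 to 0.36), so all 4 values were above 0. Without the BPA library, with BPA as the only term, the Krt18 value was -0.078. That fit sets BPA+DMBA against control and DMBA, so its value mixes both agents. Both BPA-exposed libraries were above both others for Krt7, Krt8 and Krt19, which held for 8.89% of all genes (17.1% did not overlap in either direction), but for Krt8 the nearest libraries were 643 CPM in DMBA and 645 in BPA+DMBA. For Krt19 they were 222 CPM in control and 228 in BPA+DMBA, a log2 ratio whose counting interval included equality (-0.02 to 0.10). That ratio was -0.065 with the trend on transcript length removed.

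In BPA against control all 4 were higher by similar amounts. The log2 ratios were 0.26 for Krt8 (counting interval 0.23 to 0.29), 0.22 for Krt7 (0.19 to 0.25), 0.19 for Krt19 (0.13 to 0.24) and 0.18 for Krt18 (0.16 to 0.21). The largest of these is a 1.20-fold difference, and 81.3% of all genes differed by no more than that. In BPA+DMBA against DMBA the genes spread apart. Krt19 was higher by 0.35 (0.28 to 0.41) and Krt7 by 0.14 (0.11 to 0.18), Krt18 was at 0.05 (0.02 to 0.08), and Krt8 at 0.01 (-0.03 to 0.04), which with total counts alone as scaling was -0.037. In both pairs 0 of 4 differed at least 2-fold, against 0.829% of all genes in BPA against control and 1.09% in BPA+DMBA against DMBA.

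**Figure D4:**
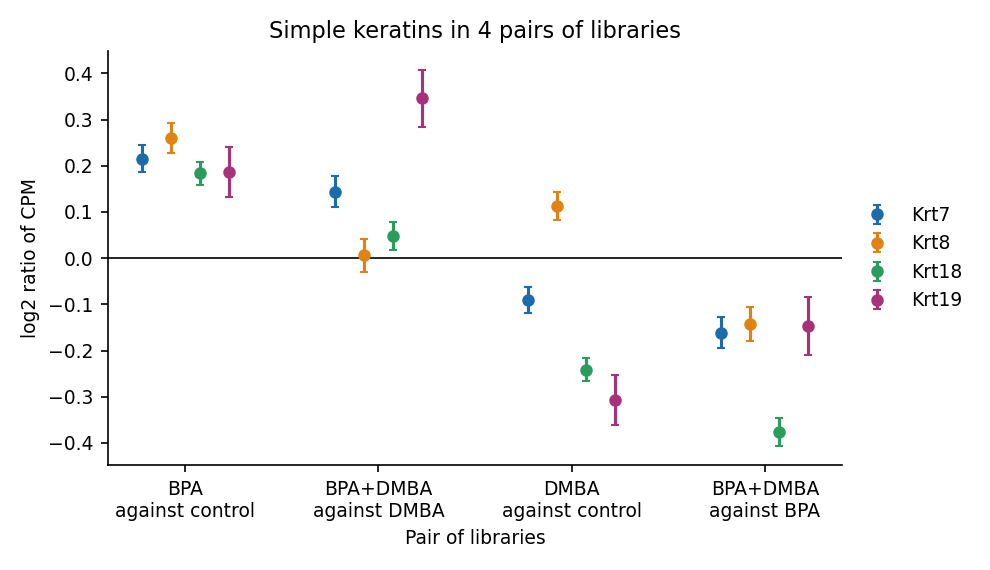
Log2 ratio of CPM for each simple keratin in 4 pairs of libraries (1 library on each side), with exact 95% counting intervals as bars. All points in BPA against control lie between 0.18 and 0.26, and Krt8 lies above 0 in DMBA against control and below 0 in BPA+DMBA against BPA.

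Departure from additivity is the BPA log2 ratio with DMBA minus that without. It was -0.25 for Krt8 (95% counting interval -0.30 to -0.21), -0.14 for Krt18 (-0.17 to -0.10), -0.07 for Krt7 (-0.12 to -0.03) and 0.16 for Krt19 (0.08 to 0.24). Krt19 was thus the one of the 4 for which the BPA ratio was larger on the DMBA background. The median size of the departure was 0.17 over all genes and 0.10 over genes with at least 1000 counts in every library. Krt5 departed by -0.59 and Krt14 by -0.19. Set against control, the combined exposure gave log2 ratios of 0.12 for Krt8, 0.05 for Krt7, 0.04 for Krt19 (interval -0.02 to 0.10) and -0.19 for Krt18 (-0.22 to -0.17), and 0 of 4 differed at least 2-fold against 4.38% of all genes. With the trend on transcript length removed the Krt19 value was -0.065.

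Other keratins were described from lists chosen with earlier results of these data known. A list drawn up as simple or luminal keratins outside the 4 genes had 3 measured members, Krt23, Krt80 and Krt4. How far these 3 are confined to simple epithelium was not tested, so they are not read as simple keratins in general. With DMBA 2 of the 3 rose and 0 fell, with a median log2 change of 0.997. Of all genes 6.67% rose and 7.72% fell, and the median over all genes was -0.00250. Krt23 rose by 1.00 (SE 0.200, edgeR adjusted p = 0.0255) from 4.95 CPM in control and 5.95 in BPA to 12.0 in DMBA and 9.50 in BPA+DMBA. Krt80, the neighbour of Krt7, rose by 0.62 (SE 0.128, edgeR adjusted p = 0.0281). Krt4 did not pass (1.81, SE 0.530, edgeR adjusted p = 0.0699). It only just met the filter on low counts, with 20 reads in DMBA and fewer in each other library. Of 9 measured keratins of basal and stratified epithelium 8 rose and 0 fell, with a median of 1.97, led by Krt16 at 2.78 and Krt6a at 2.69, keratins of stressed epithelium, Krt79 at 2.59 and Krt15 at 2.36. Krt10, of differentiated epidermis, was the 1 that did not pass (0.45, edgeR adjusted p = 0.249). Reads of Krt6a and Krt6b, close paralogs, may be split or lost.

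Proteins that tie keratin filaments to junctions or bind keratins had members on both sides. With DMBA 5 of the 18 measured rose and 3 fell, with a median of 0.05, where 6.67% of all genes rose and 7.72% fell. Sfn, a 14-3-3 protein, rose by 1.04 (SE 0.0939, edgeR adjusted p = 0.00397), Pkp1, a desmosomal plakophilin, by 0.77, and Dsp, desmoplakin, which anchors keratins at desmosomes, by 0.59. Dst, a plakin of hemidesmosomes, fell by 0.52 (SE 0.0786, edgeR adjusted p = 0.0121). Among 11 other intermediate filament genes edgeR called 0 with DMBA, where 14.4% of all genes passed. Vim, the filament of mesenchymal and basal cells, had 0.20 (edgeR adjusted p = 0.403) and Lmna, a nuclear lamin, 0.21 (edgeR adjusted p = 0.165).

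Transcription factors of epithelia were mixed: of 19 measured, 3 rose and 5 fell, with a median of 0.10, beside 6.67% and 7.72% of all genes. Grhl3, a factor of epidermal differentiation, rose by 1.13 (SE 0.116, edgeR adjusted p = 0.00507), Grhl1 by 0.52 and Jun, an AP-1 subunit, by 0.51. Ets2, an ETS family factor, fell by 0.58 (SE 0.0812, edgeR adjusted p = 0.0105). Gata3 and Elf5, factors of the luminal lineage, fell by 0.34 and 0.42 and are named outside the rule for naming genes. Foxa1, also on the list of hormone-sensing luminal markers, had a positive value and did not pass (0.45, edgeR adjusted p = 0.215).

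Markers of luminal cells, which the 4 keratins mark too, are read against the same shares of all genes, 6.67% higher and 7.72% lower. Of 15 surface and junction markers 1 rose and 3 fell with DMBA, with a median of -0.05, so the share that rose was that of all genes. Their summed level was 8021 CPM in control, 8528 with BPA, 8392 with DMBA and 7819 with both agents. Ly6d, a surface protein also made by stratified epithelium, rose by 2.29, while Muc1, a luminal mucin, fell by 1.70 (SE 0.178, edgeR adjusted p = 0.00534), Kit, the receptor of luminal progenitors, by 0.93, and Slc12a2, an ion transporter, by 0.61. Of 12 luminal progenitor and alveolar markers 2 rose and 6 fell, with a median of -0.49. Among the 6 were Kit, also counted with the surface and junction markers, and Elf5, also counted with the transcription factors. The summed level of the list was 20462, 19344, 14206 and 13989 CPM in the same order. Most of that sum was Ltf (10623, 10018, 7051 and 6921) and Lcn2 (4708, 4306, 2905 and 2980). Ltf did not pass (-0.56, edgeR adjusted p = 0.0682), and Lcn2 fell by 0.61. Trf, transferrin, fell by 1.13, and Aldh1a3, a retinaldehyde dehydrogenase, rose by 1.20. Csn2, a casein counted among those that rose, had 2, 0, 162 and 3 counts, so that only the DMBA library was high. Of 9 hormone-sensing markers 3 rose (Pgr 1.15, Ly6a 1.01, Wnt4 0.80) and 2 fell, with a median of 0.45. Prlr, the prolactin receptor, fell by 0.92. Esr1, the defining gene of that list, had 97, 52, 61 and 36 counts, which scaled to 3.3, 2.7, 2.2 and 2.3 CPM. Its change did not pass (-0.44, edgeR adjusted p = 0.298).

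Markers of other cell types were measured beside the keratins, and their part in the keratin values was not tested. The shares of all genes beside these counts are again 6.67% higher and 7.72% lower. Of 20 basal and myoepithelial markers 11 rose and 0 fell with DMBA, with a median of 0.59. Among the 11 were Krt5, Krt14, Krt15 and Krt17, which the list of basal keratins also holds. All 20 markers summed to 5304 CPM in control, 5511 with BPA, 7000 with DMBA and 6843 with both agents. Between control and DMBA, Krt5 went from 118 to 558 CPM, Krt14 from 299 to 878 and Krt17 from 212 to 1055. Itgb1, the largest part of the sum, did not pass and was at 1838, 1863, 1444 and 1648 CPM in the same order of libraries. The higher sums thus do not show a rise of the list as a whole. Actg2 (3.41) and Myh11 (2.66), smooth muscle genes, led the 11 that rose. Of 10 fibroblast markers 3 rose (Dpt 1.13, Fbln1 0.87, Dcn 0.56) and 0 fell, with a median of -0.05, values from -0.25 (Thy1) to 0.46 (Lum) for the 7 that did not pass, and a summed level of 8407, 6265, 5137 and 8584 CPM in the same order of libraries. Among 10 markers of endothelium and pericytes 5 rose and 0 fell, with a median of 0.82; they included Esam (2.60), Rgs5 (2.13), Emcn (1.92) and Pecam1 (1.53). All 10 summed to 598, 511, 531 and 736 CPM. Most of that sum was Pdgfrb (298, 223, 251 and 366) and Cspg4 (269, 245, 189 and 287), which did not pass. Esam had only 25, 9, 119 and 62 counts and Rgs5 57, 67, 436 and 121. Mesothelial cells also make Krt8, Krt18 and Krt19. The 5 mesothelial markers other than Krt19 summed to 46.3, 49.5, 42.6 and 57.7 CPM; the lowest library was DMBA, as for Krt19, but the highest was BPA+DMBA and not BPA. Upk3b and Lrrn4 were below the filter on low counts, and Msln rose by 0.45 (SE 0.0964, edgeR adjusted p = 0.0298). Wt1 (-0.97, edgeR adjusted p = 0.166) and Bnc1 (-0.42, edgeR adjusted p = 0.0940) did not pass, and the median of the 4 measured markers, Krt19 included, was -0.32. Of 3 measured immune markers Lyz2 rose by 2.48, from low counts of 8, 7, 31 and 44 in the same order of libraries. Cd68 (-0.04) and Csf1r (-0.26) did not pass. Fabp4, the 1 measured adipocyte marker, rose by 1.46, with 5.69, 6.37, 17.7 and 15.2 CPM. Of 6 red blood cell markers 4, all globins, were at 0 in every library.

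Pattern neighbours were the genes nearest to each keratin in log2 CPM centred over the 4 libraries, among genes with at least 1000 counts in every library. For Krt8 they were Cldn7, a tight junction claudin (Euclidean distance 0.0187), Myh14, a non-muscle myosin (0.0340), and Ept1 (0.0405). For Krt7 they were Midn (0.0123), Src, a tyrosine kinase (0.0326), and Scaf1 (0.0409), and for Krt18 Sipa1l3 (0.0176), Lats2, a Hippo pathway kinase (0.0194), and Fam102b (0.0291). For Krt19 they were Zyx, a focal adhesion protein (0.0636), Ttyh2 (0.0717) and Igf2bp2 (0.0720). Within a distance of 0.1 lay 105 genes for Krt7, 76 for Krt8 and 133 for Krt18 of 3941, but 4 for Krt19, whose pattern was the least shared. The keratins were not each other's neighbours. Krt7 and Krt8 were the closest pair (0.151), and 2540 genes lay nearer to Krt8 than its partner Krt18 did (0.301). With 4 libraries such distances are a description.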

How the data were processed

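For 1 library in each of 4 groups the authors deposited whole-number read counts by gene symbol. CASAVA 1.8.2, HTSeq and DESeq are the tools, and mm9 the build, per the submitters' processing notes; which tool did what, the aligner and the use of strand are not given in the sources. Library sizes and tests excluded 5 summary entries: per library, reads outside genes were 11.3% to 13.5% and reads aligned to more than 1 place 22.9% to 25.6% of all deposited counts. The filter kept genes that reached 20 counts in any library. TMM factors ran from 0.969 to 1.05. The additive model was fitted with edgeR 4.0.16 (R 4.3.3), with DESeq2 1.42.0 and edgeR's likelihood ratio test as alternatives. The intervals of its changes use the t distribution with the fit's 6.52 degrees of freedom. Log2 ratios of single pairs used a prior count of 2, and their exact Clopper-Pearson 95% intervals cover counting error only; to be called different, a gene needed a 2-fold ratio or more with equality outside its interval.

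The 4 genes, the lists, the tests and the naming rule were chosen with earlier results of these data known. The rule named the 4 keratins with Krt5, Krt14 and Trp63, up to 4 called members of each list by size of change (with none called, the 2 most abundant), and 3 pattern neighbours per keratin. Transcript lengths, coding lengths and shared 50-base windows came from GENCODE M21 (GRCm38), which is not the authors' build. Its gene positions served for chromosome, strand and overlap with other genes. Lengths matched 99.1% of kept genes. List symbols were matched to older symbols through RefSeq. The fits, the interval and the pair rule were tested on simulated data.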

Additional observations from a re-analysis of the deposited data

Results flagged for a closer look

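Krt8 is listed because its ratios with and without DMBA lay on opposite sides of equality on the 2 backgrounds, although neither reached 2-fold and its additive DMBA change did not pass (-0.01, edgeR adjusted p = 0.942). Its log2 ratio was 0.11 in DMBA against control, but -0.14 in BPA+DMBA against BPA, and neither counting interval included 0. Each background is 1 pair of libraries, so the difference was not tested across animals. Under total counts alone as scaling the values were 0.22 and -0.083, and with the trend on transcript length removed 0.049 and -0.24. Groups of 1 library allow no check for samples that stand apart.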

How the results depend on the processing

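No paired analysis was possible because each group holds 1 library and the labels give no replicate numbers. With 1 library per group the spread between animals is unknown; counting error is small at these depths (3630 counts at the lowest, for Krt19 in BPA+DMBA). For DMBA 1962 genes were called, against 1164 with at least 100 counts in 1 library, 675 with DESeq2, 1246 after thinning to the smallest total and 811 with the trend on transcript length removed; leaving out 1 library also drops the other agent's term, and gave 1049 (without control) to 2728 (without BPA+DMBA), where all 4 libraries with DMBA as the only term gave 2610. For BPA 0 were called, against 2 without a low-count filter, 1 with DESeq2 and 6 with the likelihood ratio test, and 0 with any library left out. The DMBA change of Krt8 was 0.069 with total counts alone, and ran from -0.15 to 0.12 when a library was left out, the highest without BPA. That of Krt18 passed the threshold without a low-count filter (-0.32), and ran from -0.40 to -0.22 when a library was left out. That of Krt19 ran from -0.39 (without BPA+DMBA, where it passed) to -0.057 (without DMBA). That of Krt7 ran from -0.23 (without control) to -0.016 (without BPA). With BPA as the only term and a library left out, the BPA change of Krt18 ran from -0.078 (without BPA) to 0.29, that of Krt19 from 0.11 (without DMBA) to 0.42 (without control), that of Krt8 from 0.061 (without BPA) to 0.19, and that of Krt7 from 0.098 (without BPA) to 0.25. With a library left out, the 2 sides of such a fit differ in their exposure to the other agent, so each value mixes both agents. The part of each agent in these shifts was not tested. Leaving keratins out of the scaling, an alternative added after seeing the data, changed no call of the 4 genes.

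Pair ratios shifted with scaling, by up to 0.11 with total counts alone and 0.14 with the length trend removed, and 0 of 20 reached 2-fold under any alternative. With total counts alone, Krt7, Krt8, Krt18 and Krt19 had 0.019, 0.22, -0.13 and -0.20 in DMBA against control and 0.12, 0.18, -0.13 and 0.10 in BPA+DMBA against control. Krt7, Krt8 and Krt18 had -0.10, -0.083 and -0.32 in BPA+DMBA against BPA and 0.10, -0.037 and 0.0040 in BPA+DMBA against DMBA. With the length trend removed, the 4 had -0.041, 0.049, -0.36 and -0.40 in DMBA against control and -0.12, -0.24, -0.52 and -0.28 in BPA+DMBA against BPA. Krt8, Krt18 and Krt19 then had 0.037, -0.31 and -0.065 in BPA+DMBA against control, and Krt18 0.21 in BPA against control. This correction used the 4094-base transcript for Krt7. With total counts alone the departure was -0.12 for Krt7, -0.30 for Krt8 and -0.19 for Krt18. Prior counts of 0.5 and 5, DESeq2's size factors and thinning moved no pair ratio beyond its counting interval, and thinning moved none of the 24 ratios within a library beyond theirs. The level of Krt7 over Krt8 was 0.31 on the log2 scale per coding kilobase and -0.85 per kilobase of the longest transcript.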
